A study of Mus musculus with 48 samples.

Results

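The expression of genes of the corticotropin-releasing hormone (CRH) and corticosteroid stress axis was compared between genotypes and between brain regions in sleep-deprived mice. The set was chosen by gene name, for the place of each gene in the axis, with earlier results of these data known. It held 10 genes: Crh, Crhbp, Crhr1, Crhr2, Nr3c1, Nr3c2, Fkbp5, Sgk1, Tsc22d3 and Hsd11b1. Of these, 9 genes were represented, by 18 probes, among the 18883 genes with a named probe on the array. Crh, the releasing hormone itself, was not analysed here, because no probe matched it by accession.

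CRH is a peptide that neurons of the hypothalamus release to drive the pituitary and that neurons of other regions use as a local transmitter. It acts on the receptor encoded by Crhr1, while the related urocortins act mainly on the receptor encoded by Crhr2, and the secreted protein encoded by Crhbp binds CRH and keeps it from its receptors. The adrenal steroid released in response, corticosterone in mice, acts on the glucocorticoid receptor (Nr3c1) and the mineralocorticoid receptor (Nr3c2). Both receptors are transcription factors, the enzyme encoded by Hsd11b1 regenerates active corticosterone inside cells, and Fkbp5, Sgk1 and Tsc22d3 are genes that the activated receptors induce. Sleep deprivation in rodents is known to raise corticosterone, and Sgk1, Fkbp5 and Tsc22d3 are often used as readouts of it in brain.

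All mice had been sleep-deprived for 12 h before the brain was taken, and no rested mice were included, so the levels below are those after sleep loss and not a response to it. Both Per3 alleles of the knock-in mice carried the tandem repeat of human PER3, either in its 5-repeat form (Per3 5/5, n = 8) or in its 4-repeat form (Per3 4/4, n = 8), and 8 wild-type mice (WT) served as controls. All were adults on a C57BL/6 background. Frontal cortex and hypothalamus were taken from each of these 24 mice, giving 48 arrays. The human segment replaced the corresponding mouse segment at the Per3 locus after Cre recombination in all tissues, the lines kept no Cre, and the WT line came out of the same breeding. Corticosterone was not measured in this series.

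Each array was a 1-colour Agilent array, and every level below is the log2 signal of 1 probe relative to the 75th percentile of its array, so that 0 is the 75th percentile. The 75th percentile lay between 307 and 1884 intensity units, no spot was saturated, and within a group r between arrays was 0.968 to 0.989. Per3 4/4 replicates 6 and 7 were the dimmest arrays of both tissues. Cortical markers matched the tissue labels, as the summed log2 level of 10 of them was 7.79 to 8.52 in cortex and 4.03 to 4.82 in hypothalamus. All 10 were called lower in hypothalamus in each genotype. Markers of neighbouring regions varied between arrays. The summed log2 level of 8 thalamic markers was 3.59 to 5.39 in hypothalamus, and that of 8 striatal markers was 2.82 to 4.89 in cortex. The part of these regions in the results was not tested. Pituitary genes were high on 2 hypothalamus arrays, those of WT replicate 8, with log2 levels of 8.09 for Gh and 7.89 for Prl, and of Per3 5/5 replicate 8, with 2.10 and 4.70, while the other 22 reached at most -0.32 and -0.29. No call of a member changed when both were left out. The Per3 5/5 replicate 5 cortex array also stood above the rest of the cortex arrays, with 1.24 for Gh and 1.61 for Prl against at most -2.16 and -2.68, and its part in the cortex results was not tested. Arrays were scanned on 3 days that did not hold the genotypes equally. Of the Per3 5/5 mice 4 were scanned on day 1 and 4 on day 3, the Per3 4/4 mice fell 4, 3 and 1 on days 1 to 3, and of the WT mice 5 were scanned on day 2 and 3 on day 3. Values with scan day as a block in the fit are therefore given beside the genotype results. No slide held both Per3 5/5 and WT mice, and slides 6 and 11 alone held both Per3 4/4 and WT mice.

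Of the 18 probes, 17 were well above background on all 24 arrays of each tissue and were tested. The remaining probe, A_52_P264543 of Nr3c2, was well above background on 2 of 24 cortex arrays and 8 of 24 hypothalamus arrays and was not tested. Regions separated the members more often than genotypes did. Between hypothalamus and cortex, 8 of 17 probes were called in Per3 5/5 (4 higher and 4 lower in hypothalamus), 9 in Per3 4/4 (4 higher and 5 lower) and 8 in WT (3 higher and 5 lower), at an adjusted p under 0.05 in limma. Of all 31228 probes tested, 58.6% were called in Per3 5/5, 59.0% in Per3 4/4 and 59.5% in WT, so the members' shares of 47.1%, 52.9% and 47.1% were not above the background. Counted by the brightest probe of each gene, 5 of 9 genes were called in Per3 5/5, 6 in Per3 4/4 and 5 in WT.

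**Figure D1:**
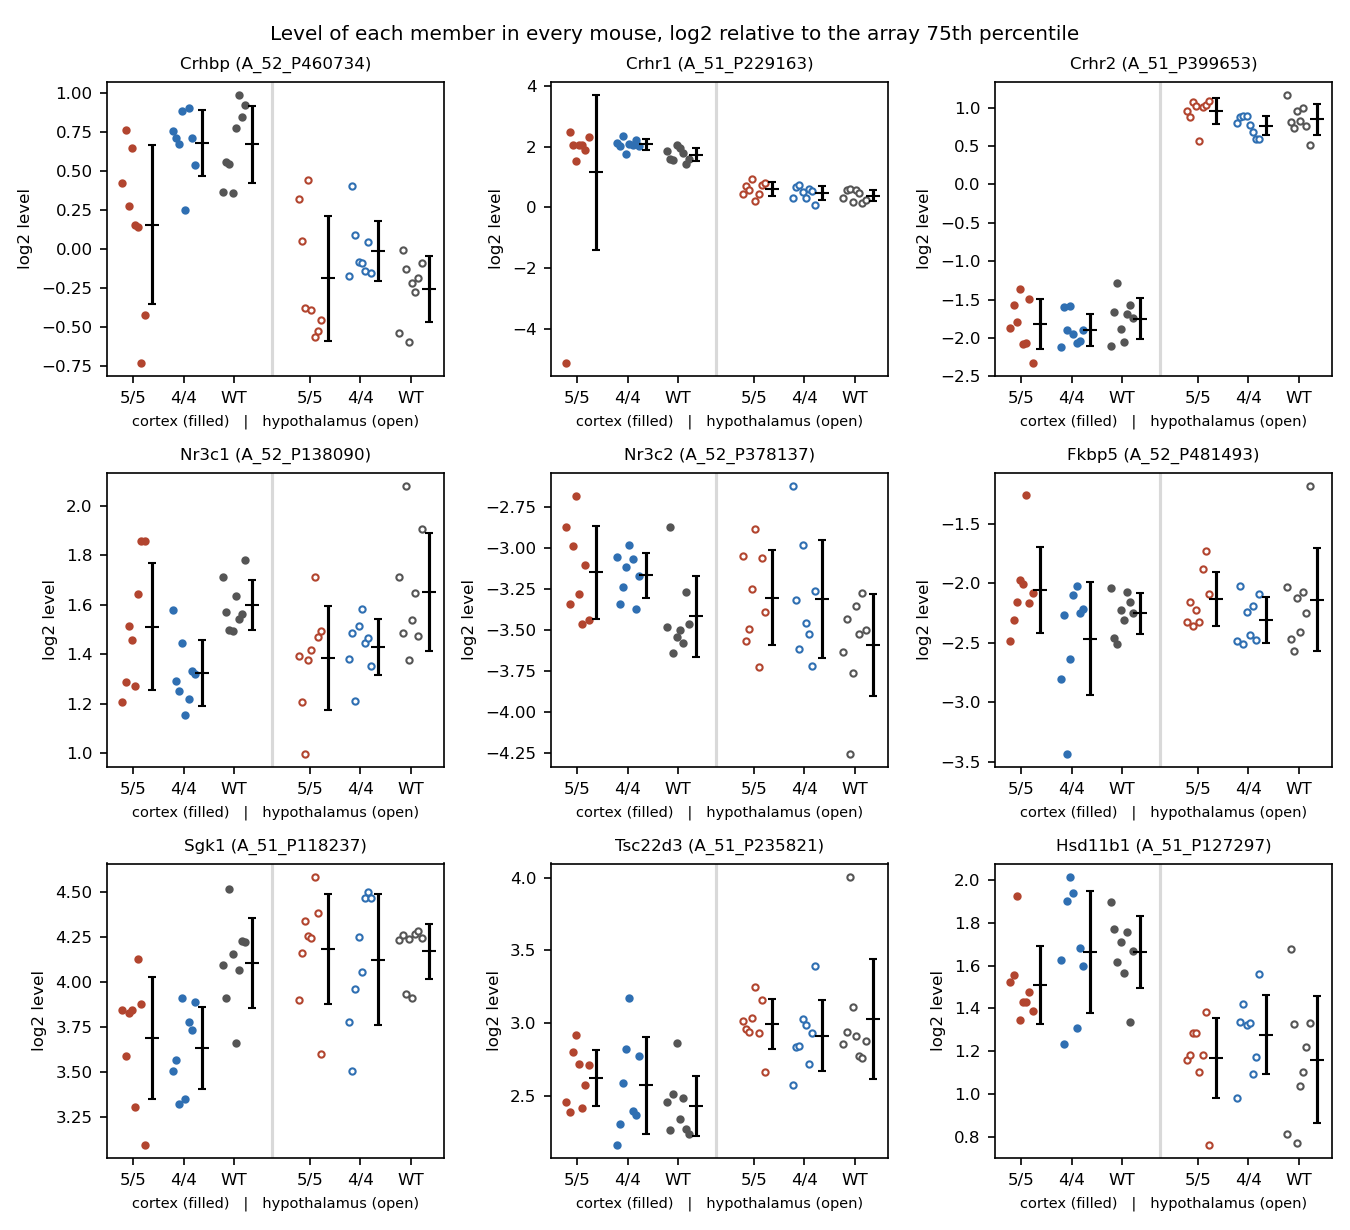
Level of the brightest tested probe of each of the 9 member genes in every mouse, as log2 signal relative to the 75th percentile of the array (vertical axis), in cortex and hypothalamus of the 3 genotypes (8 mice each); bars mark the group means. Crhr2 separates the tissues without overlap, with every cortex array at or below -1.28 and every hypothalamus array at or above 0.51, and 1 Per3 5/5 cortex array has a Crhr1 level of -5.10.

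Crhr2 showed the largest difference between the regions. The receptor it encodes binds the urocortins and is known from the ventromedial hypothalamus and other subcortical nuclei. In cortex the lowest, median and highest level of probe A_51_P399653 was -2.33, -1.83 and -1.37 in Per3 5/5, -2.12, -1.93 and -1.59 in Per3 4/4, and -2.10, -1.72 and -1.28 in WT. In hypothalamus the same values were 0.57, 1.02 and 1.09 in Per3 5/5, 0.60, 0.79 and 0.89 in Per3 4/4, and 0.51, 0.82 and 1.17 in WT. No cortex array reached the lowest hypothalamus array in any genotype, and the level was higher in hypothalamus in 8 of 8 mice of each group. The difference was 2.78 on the log2 scale in Per3 5/5 (6.85-fold, adjusted p = 3.21e-16), 2.66 in Per3 4/4 (6.32-fold, adjusted p = 6.87e-16) and 2.60 in WT (6.05-fold, adjusted p = 1.01e-15), each with an SE of 0.11. The call held under every alternative run in each genotype. Choroid plexus markers moved the same way, with a summed log2 level of 2.13 to 2.96 in hypothalamus and -1.74 to 0.96 in cortex, 8 of 8 tested markers called higher in hypothalamus of WT and Per3 4/4 mice and 7 of 8 in Per3 5/5 mice; the defining marker Ttr was well above background on 14 of 24 hypothalamus and 2 of 24 cortex arrays. Their part in the Crhr2 difference was not tested. Between genotypes the level of Crhr2 did not pass the test in either tissue, with differences of -0.15 to 0.08 in cortex and -0.08 to 0.19 in hypothalamus.

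Crhr1, which encodes the receptor through which CRH acts in cortex and pituitary, was lower in hypothalamus than in cortex. Probe A_52_P4910 read lowest, median and highest levels of -3.47, -2.36 and -1.87 in Per3 5/5 cortex, -2.47, -2.02 and -1.72 in Per3 4/4 cortex and -3.10, -2.90 and -2.40 in WT cortex. In hypothalamus they were -4.69, -3.54 and -3.06 in Per3 5/5, -3.97, -3.44 and -3.28 in Per3 4/4, and -4.30, -4.08 and -3.69 in WT. Every mouse had the lower level in hypothalamus, and in Per3 4/4 and WT mice the tissues did not overlap. The difference was -1.49 in Per3 5/5 (2.81-fold lower, adjusted p = 2.95e-10), -1.41 in Per3 4/4 (2.66-fold lower, adjusted p = 7.45e-10) and -1.16 in WT (2.24-fold lower, adjusted p = 2.02e-08), with an SE of 0.13.

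The same probe of Crhr1 gave the clearest genotype difference among the members. In cortex, 7 of 8 Per3 4/4 mice lay above all WT mice. The level was higher in Per3 4/4 than in WT by 0.81 (SE 0.17), a 1.75-fold difference with an adjusted p of 0.00344, and by 0.69 with scan day as a block (adjusted p = 0.0325). It was called in 14 of 17 alternatives, and with slide as a fixed block the difference was 0.44 (adjusted p = 0.413). That fit compared Per3 4/4 with WT mice directly only on slides 6 and 11. On scan day 2, which held 3 Per3 4/4 and 5 WT mice, the Per3 4/4 mice read -2.47 to -1.89 and the WT mice -3.10 to -2.40, a difference of 0.76 (adjusted p = 0.0810). Per3 5/5 cortex lay between, 0.48 above WT (SE 0.17, adjusted p = 0.0649), and did not pass the test. In hypothalamus 7 of 8 Per3 4/4 mice again lay above all WT mice, with a difference of 0.56 (SE 0.20) whose adjusted p of 0.0552 missed the threshold. With scan day as a block it was 0.28 (adjusted p = 0.393). It was called in 4 of 18 alternatives, among them the fit without Per3 4/4 replicates 6 and 7 (0.64, adjusted p = 0.0391). Of 10 cortical markers, 3 were called higher and 1 lower in Per3 4/4 than in WT cortex, beside 22.5% of all probes called. The median difference of these markers was 0.01, beside 0.02 over all probes. Their summed log2 level, to which the brightest markers add most, was 8.14 to 8.46 in Per3 4/4 and 7.79 to 8.21 in WT. The part of these markers in the cortex difference of Crhr1 was not tested.

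The brighter probe of Crhr1, A_51_P229163, did not make that call. It read 1.75, 2.06 and 2.34 in Per3 4/4 cortex and 1.44, 1.70 and 2.05 in WT cortex, a difference of 0.34 (SE 0.70, adjusted p = 0.769). Its error came from 1 array, Per3 5/5 replicate 1, which read -5.10 while the other 7 Per3 5/5 cortex arrays read 1.52 to 2.47. Without that array the Per3 4/4 difference kept its size, 0.34, with an SE of 0.12 and an adjusted p of 0.0381. The difference between Per3 5/5 and WT turned from -0.58 (adjusted p = 0.588) to 0.31 (adjusted p = 0.0822). The tissue difference of Per3 5/5 mice on this probe, -0.55 with all arrays (SE 0.49, adjusted p = 0.350), was -1.42 without it (SE 0.12) and was then called. In Per3 4/4 and WT mice the probe was called lower in hypothalamus with all arrays, with differences of -1.60 (adjusted p = 0.00701) and -1.34 (adjusted p = 0.0212), and the tissues did not overlap. Both probes therefore read Crhr1 as higher in cortex once that array was left out.

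Crhbp, whose product sequesters CRH outside the cell and which many cortical interneurons express, was lower in Per3 5/5 cortex than in WT cortex. Its probe A_52_P460734 read -0.73, 0.21 and 0.76 in Per3 5/5, 0.25, 0.71 and 0.91 in Per3 4/4, and 0.36, 0.67 and 0.99 in WT as lowest, median and highest. The groups overlapped, with 5 of 8 Per3 5/5 mice below all WT mice and 4 of 8 below all Per3 4/4 mice. The level was lower in Per3 5/5 than in WT by a log2 difference of -0.51 (SE 0.17), a 1.43-fold difference with an adjusted p of 0.0478, close to the threshold. It was called in 7 of 16 alternatives with no change of sign and a highest adjusted p of 0.205, and with scan day as a block it was -0.77 (adjusted p = 0.0432). Without the dim Per3 4/4 replicates 6 and 7, which share the estimate of the spread, its adjusted p was 0.0572. Against Per3 4/4 the difference was -0.52 (SE 0.17), of similar size, but its adjusted p was 0.285. This direction is the opposite of the one in the study's text. The sign was the same in all 17 alternatives, and the authors' deposited table gave -0.53 (adjusted p = 0.301). Per3 4/4 and WT differed by 0.01 (95% confidence interval -0.34 to 0.36).

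The spread of Crhbp within Per3 5/5 cortex went with the scan day and, on day 3, with the slide. The 4 Per3 5/5 mice of day 1 read 0.27 to 0.76 (mean 0.53) and the 4 of day 3 read -0.73 to 0.15 (mean -0.22). On day 3 the 3 WT mice read 0.84 to 0.99, so the groups did not overlap, and the difference on that day alone was -1.14 (SE 0.23), with an adjusted p of 0.0805. WT levels also differed by day. The 5 WT mice of day 2 read 0.36 to 0.78 (mean 0.52), below all WT mice of day 3. That range overlapped with the one of the Per3 5/5 mice of day 1. No Per3 5/5 mouse was scanned on day 2. On day 1 no WT mouse was scanned, and the 4 Per3 4/4 mice read 0.67 to 0.89. The 4 Per3 5/5 mice of day 3 thus held the lowest Crhbp levels of their group. Of these, mice 21 and 22 on slide 9 deviated from the group mean by -0.01 each. Mice 23 and 24 on slide 10 deviated by -0.89 and -0.58. Neither slide held another genotype, and the part of the slide was not tested. Of 11 inhibitory neuron markers 0 were called between Per3 5/5 and WT cortex, with summed log2 levels of 8.03 to 8.40 and 8.08 to 8.37.

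Crhbp was also lower in hypothalamus than in cortex. Hypothalamus levels were -0.57, -0.39 and 0.44 in Per3 5/5, -0.17, -0.09 and 0.40 in Per3 4/4, and -0.60, -0.20 and -0.01 in WT. The tissues did not overlap in WT, the hypothalamus level was lower in 8 of 8 WT, 8 of 8 Per3 4/4 and 7 of 8 Per3 5/5 mice, and the difference was -0.93 in WT (adjusted p = 2.48e-08), -0.69 in Per3 4/4 (adjusted p = 2.36e-06) and -0.35 in Per3 5/5 (adjusted p = 0.00540), with an SE of 0.10. The smaller gap of Per3 5/5 mice was not shown to differ, since the interaction of tissue and genotype against WT was 0.58 (SE 0.14) with an unadjusted p of 0.000489 and an adjusted p of 0.436. In hypothalamus itself no genotype difference of Crhbp passed the test.

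**Figure D2:**
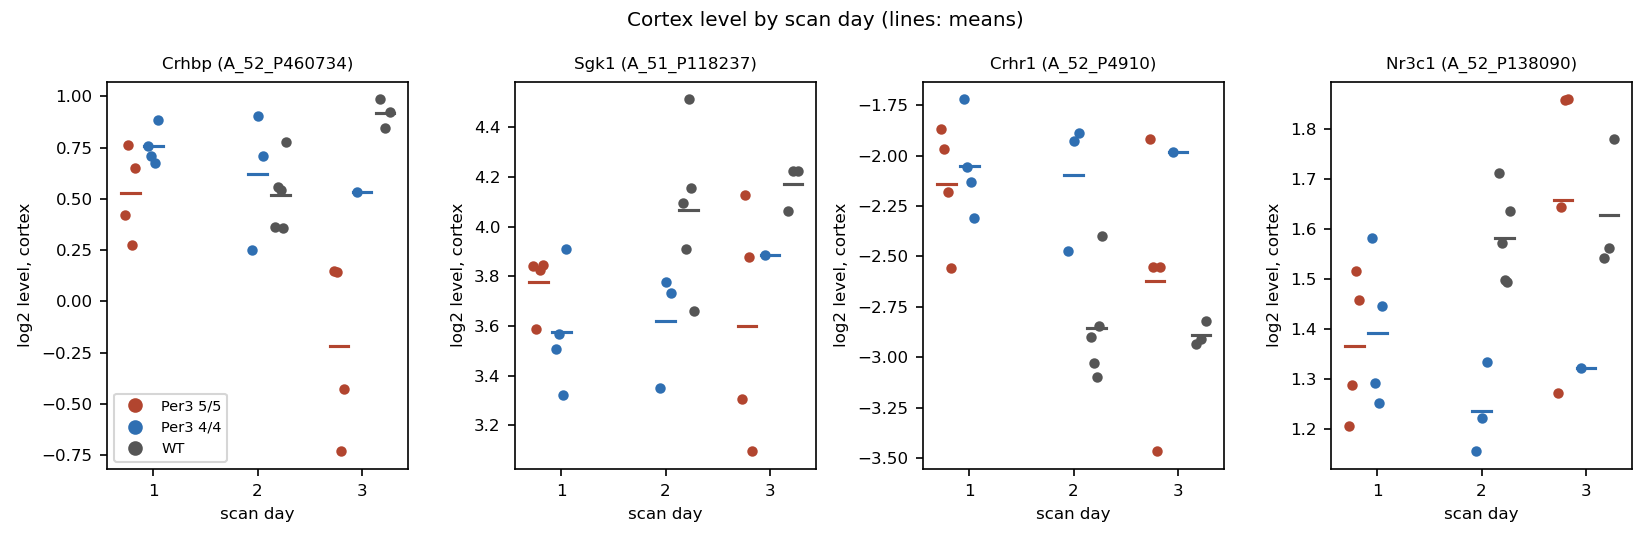
Cortex level (log2 relative to the array 75th percentile, vertical axis) against scan day for the member probes called between knock-in and WT cortex; each point is 1 mouse, coloured by genotype, and lines mark the mean of a genotype on a day. In Crhbp the 4 Per3 5/5 mice of day 3 lie at -0.73 to 0.15, below the 3 WT mice of that day at 0.84 to 0.99, while the 4 of day 1 lie at 0.27 to 0.76. The 5 WT mice of day 2 lie at 0.36 to 0.78.

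Nr3c1, the glucocorticoid receptor, was read by 4 probes that differed little between the tissues. None of them was called between hypothalamus and cortex in any genotype, with differences of -0.13 to 0.10. Between genotypes the probes disagreed. The brightest, A_52_P138090, read 1.16, 1.31 and 1.58 in Per3 4/4 cortex, 1.49, 1.57 and 1.78 in WT cortex and 1.21, 1.49 and 1.86 in Per3 5/5 cortex. In Per3 4/4, 7 of 8 mice lay below all WT mice, and the level was lower than in WT by a log2 difference of -0.27 (SE 0.09, 1.21-fold, adjusted p = 0.0346). The difference with scan day as a block was -0.24 (adjusted p = 0.125), and the call was made in 11 of 17 alternatives. Without Per3 4/4 replicates 6 and 7 the difference was -0.26 (adjusted p = 0.0750). The other 3 probes gave Per3 4/4 minus WT differences of 0.25 for A_51_P355693 (adjusted p = 0.108), 0.04 for A_52_P254174 (adjusted p = 0.909) and -0.07 for A_52_P63106 (adjusted p = 0.598), so a change of the receptor transcript as a whole was not shown. In hypothalamus A_52_P138090 had a mean of 1.38 in Per3 5/5 and 1.65 in WT, a difference of -0.27 (adjusted p = 0.0626) that passed only when arrays were scaled to their median (adjusted p = 0.0327).

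Nr3c2, the mineralocorticoid receptor, binds corticosterone with higher affinity than Nr3c1 and is most abundant in hippocampus. Its probe A_51_P377914 read -4.12, -4.00 and -3.72 in Per3 5/5 cortex, -4.42, -4.11 and -3.68 in Per3 4/4 cortex, and -4.82, -4.48 and -3.34 in WT cortex. In hypothalamus it read -4.59, -4.42 and -4.00, then -4.83, -4.59 and -4.30, then -6.04, -4.67 and -4.45 in the same order, the lowest WT value being replicate 3. It was lower in hypothalamus in 8 of 8 Per3 5/5, 8 of 8 Per3 4/4 and 7 of 8 WT mice. The difference was -0.43 (adjusted p = 0.00731), -0.54 (adjusted p = 0.000972) and -0.49 (adjusted p = 0.00255), with an SE of 0.13, and the WT value without replicate 3 of the hypothalamus was -0.36 (adjusted p = 0.0136). The brighter probe A_52_P378137 had smaller differences of -0.15, -0.14 and -0.17 in the same direction, which did not pass the test. Between knock-ins and WT, both probes read higher in the knock-ins in both tissues, by 0.23 to 0.43, and none of these 8 differences passed the test (lowest adjusted p = 0.0592, for A_51_P377914 in Per3 5/5 hypothalamus). With scan day as a block they were 0.08 to 0.32, the lowest being A_52_P378137 in Per3 5/5 hypothalamus, which was 0.29 without the block. Without WT replicate 3, the hypothalamus differences of A_51_P377914 went from 0.43 to 0.26 in Per3 5/5 (adjusted p = 0.0518) and from 0.23 to 0.05 in Per3 4/4 (adjusted p = 0.705).

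Fkbp5 encodes a co-chaperone of the receptor complex that lowers the affinity of the glucocorticoid receptor for its ligand, and it is itself induced by that receptor. Its 3 probes were called in no comparison. The brightest, A_52_P481493, read -2.48, -2.12 and -1.26 in Per3 5/5 cortex, -3.43, -2.25 and -2.02 in Per3 4/4 cortex and -2.51, -2.24 and -2.04 in WT cortex, with overlapping groups. In hypothalamus it read -2.36, -2.19 and -1.73 in Per3 5/5, -2.51, -2.34 and -2.02 in Per3 4/4, and -2.57, -2.18 and -1.18 in WT. Tissue differences of the 3 probes were -0.08 to 0.21, and the largest, that of A_52_P337899 in WT (adjusted p = 0.0569), was 0.26 and called (adjusted p = 0.0268) without hypothalamus replicate 3. Between the knock-ins in cortex the probes pointed in opposite directions, since Per3 5/5 minus Per3 4/4 was 0.41 for A_52_P481493 (adjusted p = 0.290), -0.33 for A_51_P383689 (adjusted p = 0.289) and -0.17 for A_52_P337899 (adjusted p = 0.402). The lowest adjusted p of any member between the knock-ins, 0.241, was that of A_52_P337899 in hypothalamus, with a Per3 5/5 minus Per3 4/4 difference of -0.25 (SE 0.09).

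Sgk1, the serum and glucocorticoid regulated kinase, acts on ion channels and transporters and is among the classical direct targets of the receptor. Of the 6 promoter windows of this gene, 1 is shown because it carries a full palindromic receptor element, and that of Fkbp5 is shown beside it as a receptor-induced gene whose window holds no such element. Windows ran from 250 bases before to 50 bases after each annotated start in RefSeq (GRCm38.p6), and 8 of the 10 members had 15 windows. The palindrome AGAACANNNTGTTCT, searched on both strands, lay in 3 of 32851 windows (0.00913%), of which 1 was that of Sgk1, at -189 to -175 from the start. The E-box CACGTG, a motif of clock factors, lay in 7.15% of windows, among them those of Sgk1 (-246 to -241) and Fkbp5 (-169 to -164). AGAACA, a single arm of that palindrome, lay in 19% of all windows and in 4 of the 15 member windows, those of Sgk1 and Tsc22d3. TGACGTCA, the cyclic AMP response element, lay in 1.79% of all windows and in 0 member windows. A match is only a match of letters, and no binding was measured. The 250 bases before the start are printed 5′ to 3′ on the strand of the gene, for Sgk1 at chr10:21993640-21993889 (plus strand) and for Fkbp5 at chr17:28486150-28486399 (minus strand), with the palindrome and the E-boxes in capitals.
Sgk1: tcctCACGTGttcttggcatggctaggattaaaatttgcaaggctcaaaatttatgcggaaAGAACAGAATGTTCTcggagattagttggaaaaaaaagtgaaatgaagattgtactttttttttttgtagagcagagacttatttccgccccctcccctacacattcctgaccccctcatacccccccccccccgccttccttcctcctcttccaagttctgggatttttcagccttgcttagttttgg
Fkbp5: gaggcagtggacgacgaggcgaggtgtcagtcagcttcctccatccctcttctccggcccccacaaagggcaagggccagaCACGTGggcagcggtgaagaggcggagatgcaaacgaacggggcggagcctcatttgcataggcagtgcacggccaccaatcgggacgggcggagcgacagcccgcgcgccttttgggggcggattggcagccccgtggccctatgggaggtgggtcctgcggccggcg

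Sgk1 was lower in cortex of both knock-ins than in WT cortex. Probe A_51_P118237 read 3.09, 3.83 and 4.13 in Per3 5/5, 3.32, 3.65 and 3.91 in Per3 4/4, and 3.66, 4.12 and 4.51 in WT. The groups overlapped, with 3 of 8 Per3 5/5 and 4 of 8 Per3 4/4 mice below all WT mice. The log2 difference from WT was -0.42 in Per3 5/5 (SE 0.14, 1.34-fold lower, adjusted p = 0.0459) and -0.47 in Per3 4/4 (SE 0.14, 1.39-fold lower, adjusted p = 0.0162). Both comparisons share the WT arrays. With scan day as a block the differences were -0.46 (adjusted p = 0.131) and -0.49 (adjusted p = 0.0559), similar in size and no longer called. With slide as a fixed block they were -0.05 (adjusted p = 0.955) and -0.24 (adjusted p = 0.627). No slide held both Per3 5/5 and WT mice, so that fit reached their difference only through Per3 4/4 mice. The Per3 4/4 difference was called in 13 of 17 alternatives and the Per3 5/5 difference in 7 of 16, and neither changed sign. Without Per3 4/4 replicates 6 and 7 the adjusted p of Per3 5/5 was 0.0551. Oligodendrocytes are known to express Sgk1, and their markers were called in 0 of 9 cases in either comparison, with summed log2 levels of 6.27 to 7.62 in Per3 5/5, 6.87 to 7.55 in Per3 4/4 and 6.59 to 7.66 in WT cortex.

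In hypothalamus no genotype difference of Sgk1 passed the test. It read 3.60, 4.25 and 4.58 in Per3 5/5, 3.51, 4.15 and 4.50 in Per3 4/4, and 3.91, 4.24 and 4.28 in WT. The difference from WT was 0.01 in Per3 5/5 (95% confidence interval -0.28 to 0.31) and -0.05 in Per3 4/4 (-0.34 to 0.25). The hypothalamus minus cortex difference was 0.49 in Per3 5/5 (SE 0.10, higher in 8 of 8 mice, adjusted p = 8.96e-05), 0.49 in Per3 4/4 (higher in 7 of 8 mice, adjusted p = 9.48e-05) and 0.06 in WT (higher in 7 of 8 mice, adjusted p = 0.594). The interactions against WT were 0.43 for each knock-in (SE 0.13), with unadjusted p of 0.00388 and 0.00415 and adjusted p of 0.699 and 0.925, so a genotype dependence did not pass the test. Oligodendrocyte markers also had a larger gap in the knock-ins, with median hypothalamus minus cortex differences of 1.05 in Per3 5/5, 0.995 in Per3 4/4 and 0.59 in WT. Their gap came with higher levels in knock-in hypothalamus, where Sgk1 did not differ. There 3 and 6 of 9 were called higher in Per3 5/5 and Per3 4/4 than in WT (medians 0.30 and 0.42). In cortex, where Sgk1 was lower in the knock-ins, their median differences from WT were -0.13 and -0.03. The part of oligodendrocytes in the Sgk1 values was not tested. In bulk tissue, fewer cells of a type and less RNA per cell cannot be told apart.

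Tsc22d3, also known as the glucocorticoid-induced leucine zipper, was higher in hypothalamus on both of its probes in all genotypes. Probe A_51_P235821 read 2.39, 2.64 and 2.92 in Per3 5/5 cortex, 2.16, 2.49 and 3.17 in Per3 4/4 cortex and 2.24, 2.40 and 2.86 in WT cortex. In hypothalamus it read 2.67, 2.99 and 3.25 in Per3 5/5, 2.57, 2.89 and 3.39 in Per3 4/4, and 2.76, 2.89 and 4.00 in WT. The ranges overlapped in every genotype, and the difference was 0.37 in Per3 5/5 (adjusted p = 0.00496), 0.34 in Per3 4/4 (adjusted p = 0.00889) and 0.60 in WT (adjusted p = 3.80e-05), with an SE of 0.11. The highest WT value was replicate 3, without which the WT difference was 0.47 and still called. The other probe, A_52_P600518, gave 0.40, 0.36 and 0.48 in the same order, and was higher in hypothalamus in 8 of 8 mice of each group. No genotype difference of Tsc22d3 passed the test in either tissue, the closest being A_52_P600518 in cortex, 0.29 higher in Per3 4/4 than in WT (SE 0.12, adjusted p = 0.0699).

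Hsd11b1, which sets how much active corticosterone a cell regenerates, was lower in hypothalamus. Probe A_51_P127297 read 1.35, 1.45 and 1.92 in Per3 5/5 cortex, 1.23, 1.65 and 2.01 in Per3 4/4 cortex and 1.33, 1.69 and 1.90 in WT cortex. In hypothalamus it read 0.76, 1.18 and 1.38 in Per3 5/5, 0.98, 1.33 and 1.56 in Per3 4/4, and 0.77, 1.16 and 1.68 in WT. The ranges overlapped, 8 of 8 Per3 5/5, 7 of 8 Per3 4/4 and 8 of 8 WT mice were lower in hypothalamus, and the difference was -0.34 (adjusted p = 0.00723), -0.39 (adjusted p = 0.00281) and -0.50 (adjusted p = 0.000204) in that order, with an SE of 0.10. Genotype differences of Hsd11b1 were -0.16 to 0.12 and did not pass the test.

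**Figure D3:**
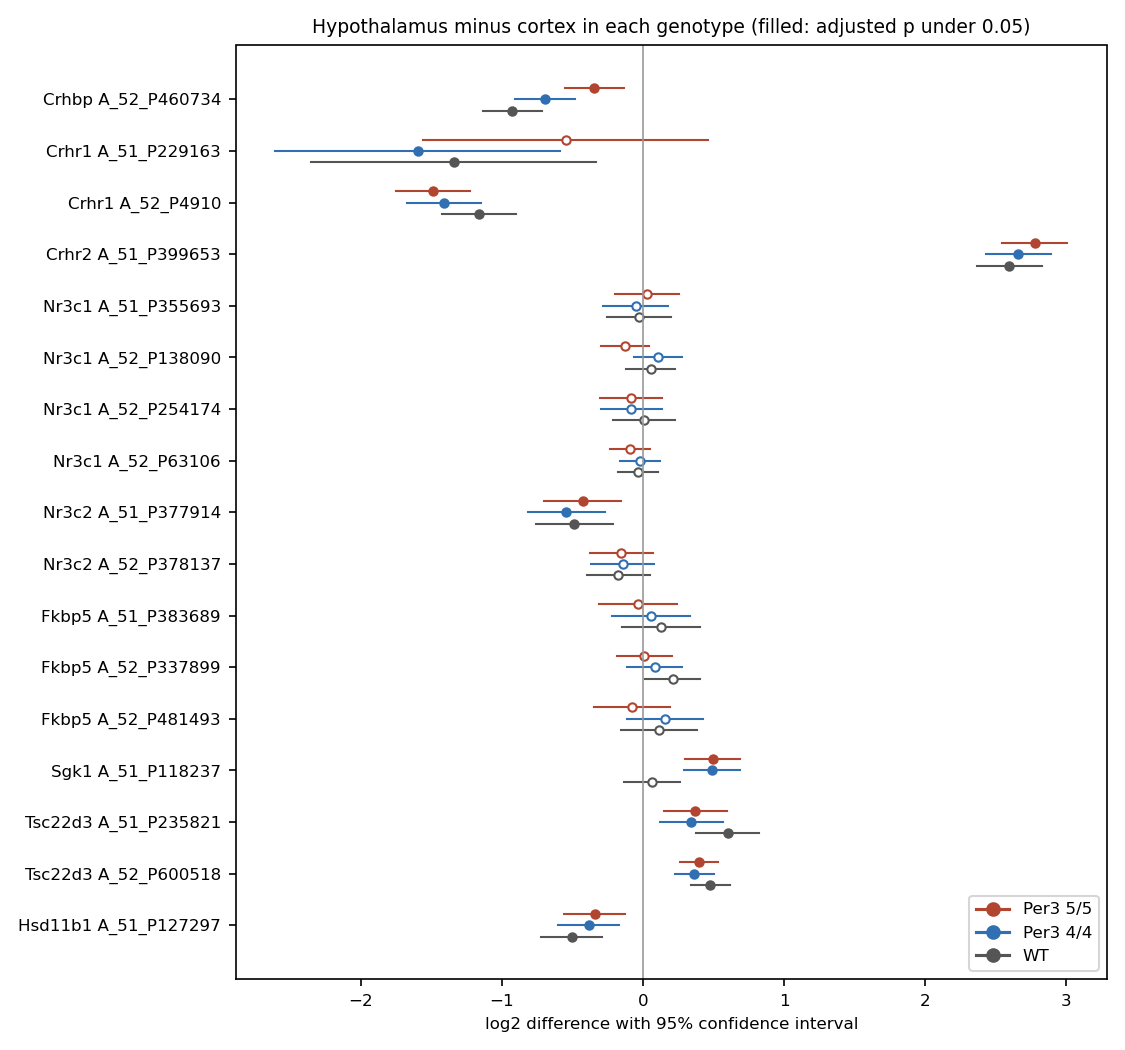
Hypothalamus minus cortex log2 difference (horizontal axis) with its 95% confidence interval for each of the 17 tested member probes in Per3 5/5, Per3 4/4 and WT mice; filled points have an adjusted p under 0.05 in limma. Crhr2 lies at 2.60 to 2.78, Crhr1 A_52_P4910 at -1.49 to -1.16, and the Nr3c1 and Fkbp5 probes lie around 0 with none called.

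Set over the whole group, the genotype calls were few. Between the knock-ins, which differ only in the number of repeats, 0 of 17 member probes were called in either tissue by limma, as were 0 of all 29715 probes in cortex (0%) and 0 of 30735 in hypothalamus (0%). At an unadjusted p under 0.05, 3 member probes passed in cortex and 2 in hypothalamus, and the methods' t-test with Benjamini-Hochberg adjustment called 0. The study also called probes by a rank product analysis, and it reported transcripts that differed between the knock-ins in both tissues. The rank product analysis was not run here. Between Per3 5/5 and WT cortex, 2 of 17 probes were called, both lower (Crhbp and Sgk1), or 11.8%, against 12.4% of all probes. Between Per3 4/4 and WT cortex, 3 of 17 were called (Crhr1 higher, Nr3c1 and Sgk1 lower), or 17.6%, against 22.5% of all probes. Neither share was above the background. By the brightest probe of each gene, 2 of 9 genes were called in each of these comparisons, Crhbp and Sgk1 in Per3 5/5 and Nr3c1 and Sgk1 in Per3 4/4.

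In hypothalamus no member was called between knock-in and WT mice, 0 of 17 in each comparison by limma, while 18.8% of all probes were called for Per3 5/5 and 15.1% for Per3 4/4. The unadjusted p was under 0.05 for 3 member probes in each comparison, and the methods' t-test called 0. The interaction of tissue and genotype was called for 0 members in the 3 pairs of genotypes, with 1, 2 and 1 member probes at an unadjusted p under 0.05 (Crhbp between the knock-ins, Crhbp and Sgk1 for Per3 5/5 against WT, Sgk1 for Per3 4/4 against WT). Of all probes, 0% were called between the knock-ins, 0.00961% for Per3 5/5 against WT and 0.00320% for Per3 4/4 against WT. By the brightest probe of each of the 9 genes, the median difference from WT in cortex was -0.09 in Per3 5/5 and 0.00 in Per3 4/4. Over all probes it was 0.06 and 0.02.

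**Figure D4:**
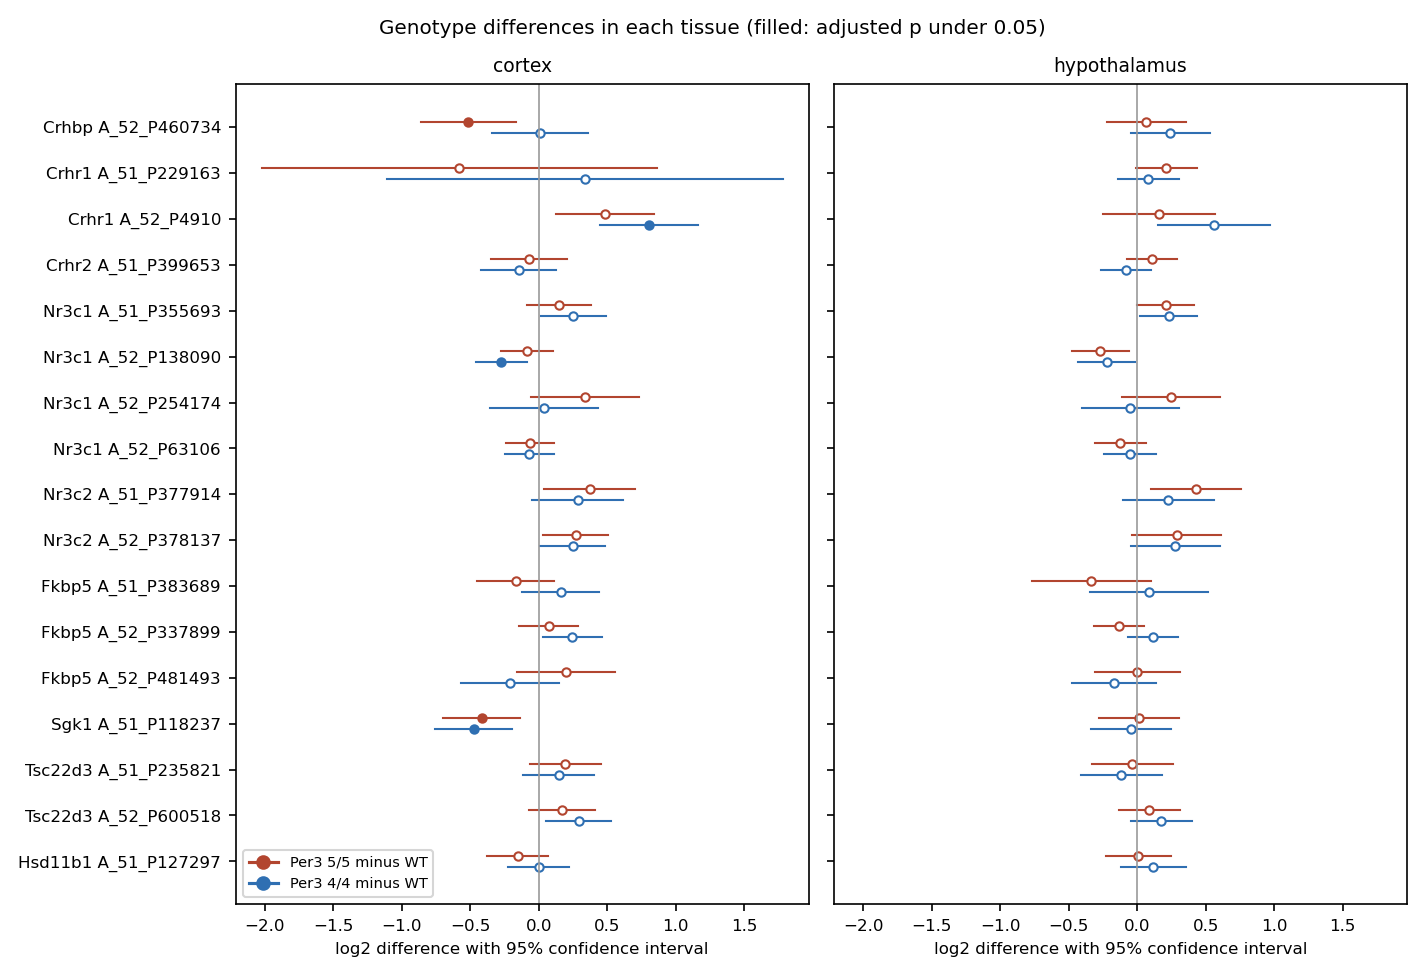
Log2 difference of Per3 5/5 minus WT and Per3 4/4 minus WT (horizontal axis) with 95% confidence intervals for the 17 tested member probes in cortex and hypothalamus; filled points have an adjusted p under 0.05 in limma. In cortex the called probes are Crhbp and Sgk1 in Per3 5/5 and Crhr1 A_52_P4910, Nr3c1 A_52_P138090 and Sgk1 in Per3 4/4; in hypothalamus none is called.

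Both tissues of each mouse were compared to ask whether a mouse with a high level in cortex also had one in hypothalamus. Across the 24 mice, with the genotype mean removed, Crhbp correlated between the tissues (Pearson's r = 0.60, Spearman's rho = 0.59, permutation p = 0.00188, adjusted p = 0.0169 over 9 genes). Sgk1 correlated with r = 0.55 and rho = 0.58 (permutation p = 0.00561, adjusted p = 0.0252). Without the 2 mice farthest from the median cortex level, r was 0.52 for Crhbp and 0.55 for Sgk1, each with an adjusted permutation p of 0.0620 that missed the threshold, while the rank correlations passed (rho = 0.54 and 0.71). With scan day also removed, r was 0.42 for Crhbp (adjusted permutation p = 0.115) and 0.62 for Sgk1, which still passed. Both tissues of a mouse were on 1 slide, and with slide removed as well as genotype r was 0.16 for Crhbp and 0.59 for Sgk1. The value of Sgk1 was thus as large within scan days and slides as over all mice, and that of Crhbp was smaller. With the genotype mean alone removed, the other 7 genes had r of -0.02 (Crhr2) to 0.42 (Nr3c2) and did not pass, although the rank correlations of Fkbp5 (rho = 0.52), Tsc22d3 (rho = 0.49) and Nr3c2 (rho = 0.49) had adjusted permutation p of 0.0287, 0.0304 and 0.0304. With scan day also removed, Nr3c2 passed (r = 0.52, adjusted permutation p = 0.0417), while the rank correlations of Fkbp5 and Tsc22d3 missed the threshold (adjusted permutation p = 0.0674 each). With slide removed as well as genotype, r was 0.52 for Nr3c2, 0.38 for Fkbp5 and -0.51 for Tsc22d3, so that of Tsc22d3 changed sign.

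**Figure D5:**
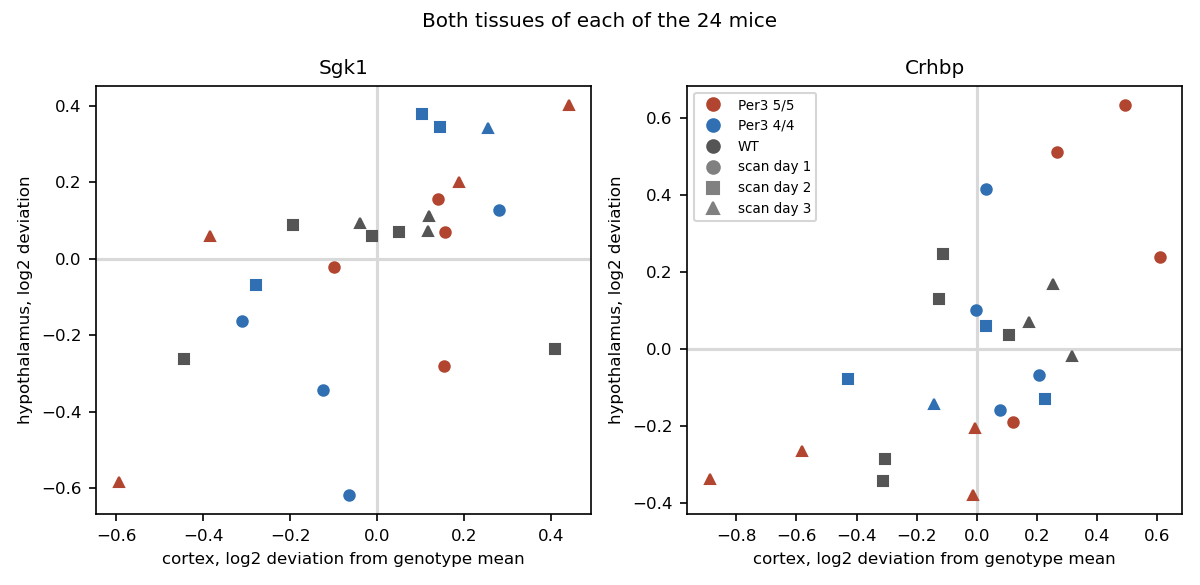
Deviation of each of the 24 mice from its genotype mean in cortex (horizontal axis) and hypothalamus (vertical axis), both in log2 units, for Crhbp and Sgk1; colours mark the genotype and symbols the scan day. Pearson's r is 0.60 for Crhbp and 0.55 for Sgk1; with scan day removed it is 0.42 and 0.62.

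The receptor-induced genes were also compared with one another. Among Fkbp5, Sgk1, Tsc22d3 and Per1, a clock gene that carries receptor elements and that corticosterone induces, 12 relations were computed, 6 in each tissue, across the 24 mice with the genotype mean removed. None passed a permutation test after adjustment. The closest was Tsc22d3 with Per1 in hypothalamus (r = 0.49, rho = 0.15, permutation p = 0.0242, adjusted p = 0.291), and without the 2 mice farthest from the median r was -0.12. For Fkbp5 and Sgk1 r was 0.28 (cortex) and 0.20 (hypothalamus), and for Sgk1 and Tsc22d3 it was -0.05 and 0.12. Mice with a high level of 1 induced gene were thus not shown to have high levels of the others. Only the brightest probe of each gene was used. For Fkbp5 the other probes had pointed the other way between the knock-ins in cortex.

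For 4 members the genes with the most similar pattern over the 24 arrays of a tissue were listed, as a description, after genotype and scan day means were removed. In cortex they were Tax1bp1 (r = 0.91) and Bclaf1 (r = 0.90) for Crhbp, and Cpsf6 and Pcnp (r = 0.92 each) for Nr3c1. For Fkbp5 in cortex they were Abcc9 (r = 0.77) and Prdm1 (r = 0.76), and for Sgk1 they were Wnt3 (r = 0.87) and Il12rb1 (r = 0.86). In hypothalamus they were Inhba (r = 0.81) and Bglap (r = 0.80) for Crhbp, Spg20 (r = 0.89) and Rnft1 (r = 0.87) for Nr3c1, Emb (r = 0.84) and Elmo3 (r = 0.84) for Fkbp5, and Nrros (r = 0.72) and Arrdc2 (r = 0.71) for Sgk1. No gene was listed for the same member in both tissues. The points of each correlation share slides and array brightness, whose part in it was not tested.

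Other genes of the axis were counted in 4 lists with 1 probe per gene. Of the peptides and steroid-handling genes, 10 of 16 were called between hypothalamus and cortex in Per3 5/5, 10 in Per3 4/4 and 9 in WT. These shares of 62.5%, 62.5% and 56.3% lay near the 58.6%, 59.0% and 59.5% of all probes. Avp, which acts with CRH on the pituitary, was higher in hypothalamus by 10.29, 10.35 and 10.62 on the log2 scale in Per3 5/5, Per3 4/4 and WT. Ucn3, a ligand of the receptor encoded by Crhr2, was higher by 4.78, 5.37 and 5.05, in the same direction as its receptor. Pomc, the precursor of corticotropin, was higher by 3.84, 4.60 and 5.10, and by 3.68, 4.60 and 4.72 without the hypothalamus arrays of Per3 5/5 replicate 8 and WT replicate 8. Ucn, another ligand, was lower in hypothalamus, with differences of -1.98, -1.06 and -1.98. Between genotypes, Oxt was called higher (0.59, adjusted p = 0.0370) and Akr1c14, which inactivates steroids, lower (-0.57, adjusted p = 0.0305) in Per3 5/5 than in WT cortex, 0 of 15 were called for Per3 4/4 in cortex, and Ucn3 was called higher in Per3 4/4 hypothalamus (0.71, SE 0.22, adjusted p = 0.0358). None of these 3 was called with scan day as a block (adjusted p = 0.0605, 0.253 and 0.146). That block gained 2 calls in Per3 4/4 cortex, Oxt higher (0.65, adjusted p = 0.0275, against 0.44 and 0.0786 without the block) and Star, which moves cholesterol into mitochondria for steroid synthesis, lower (-0.21, adjusted p = 0.0462, against -0.13 and 0.150). Without the block, 13.3% and 0% of the list were called in Per3 5/5 and Per3 4/4 cortex, beside 12.4% and 22.5% of all probes. In hypothalamus the shares were 0% and 6.25%, beside 18.8% and 15.1%.

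The chaperones and cofactors of the receptors were 21 genes, all tested. In cortex 1 was called lower in Per3 5/5 than in WT, Ptges3, the p23 co-chaperone that stabilises the ligand-binding form of the receptor (-0.31, adjusted p = 0.0118). In Per3 4/4 cortex 2 were called higher, Fkbp4 (0.44, adjusted p = 0.0411) and Bag1 (0.37, adjusted p = 0.0249), and 5 lower, Ptges3, Ncoa2, Ep300, Hspa1a and Hspa4, with differences of -0.38 to -0.25. Fkbp4 is the co-chaperone that counters Fkbp5 in the receptor complex. In hypothalamus 1 was called higher and 2 lower in each knock-in, Ncor1 higher with Ptges3 and Ppid lower in Per3 5/5, and Stip1 higher with Ncoa2 and Hspa1a lower in Per3 4/4. With scan day as a block 0 of these were called. The shares called without it were 4.76% and 33.3% in Per3 5/5 and Per3 4/4 cortex, beside 12.4% and 22.5% of all probes. For hypothalamus they were 14.3% each, beside 18.8% and 15.1%. Between the tissues 10 of 21 were called in Per3 5/5, 14 in Per3 4/4 and 15 in WT, or 47.6%, 66.7% and 71.4%, on either side of the share of all probes, with Ncor1 lower in hypothalamus (-0.99 to -0.82) and Fkbp4 higher by 0.66 to 0.77.

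Glucocorticoid-induced genes outside the members did not move in 1 direction between genotypes. In cortex 1 of 29 was called higher and 1 lower in Per3 5/5 than in WT, Per1 (0.28, adjusted p = 0.0304) and Cebpd (-0.53, adjusted p = 0.0237). In Per3 4/4 cortex 1 was called higher, Klf9 (0.22, adjusted p = 0.0447), and 4 lower, Rhob, Bcl6, Klf15 and Ddit4, with differences of -0.53 to -0.30. In hypothalamus, 2 of 28 were called higher in Per3 5/5 than in WT (Arrdc2 by 0.50 and Timp4 by 0.37) and 1 lower (Cebpd, -0.76), and in Per3 4/4 1 higher (Arrdc2 by 0.44) and 2 lower (Dusp1, -0.33, and Klf15, -0.48). With scan day as a block 0 were called in each of these comparisons. The shares called without it were 6.9% and 17.2% in Per3 5/5 and Per3 4/4 cortex, beside 12.4% and 22.5% of all probes. For hypothalamus, 3 of 28 were called in each knock-in, a share below the 18.8% and 15.1% of all probes. None of these shares was above the background. Median differences from WT over the list were -0.06 to 0.02, beside 0.02 to 0.06 over all probes. Between the knock-ins the medians of Per3 5/5 minus Per3 4/4 were 0.03 in cortex and 0.11 in hypothalamus, with no gene called. Between the tissues 21 of 29 were called in Per3 5/5, 23 in Per3 4/4 and 24 in WT, or 72.4%, 79.3% and 82.8%, beside 58.6%, 59.0% and 59.5% of all probes. Among them were Gpd1 (-2.36 to -2.20), Mertk (-1.55 to -1.46) and Klf9 (-1.20 to -1.16), all lower in hypothalamus.

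Immediate early genes, which follow neuronal activity and acute stress, were lower in hypothalamus than in cortex, in 15 of 17 genes in Per3 5/5, 14 in Per3 4/4 and 16 in WT, with medians of -2.12, -2.15 and -2.12. These are 88.2%, 82.4% and 94.1% of the list, beside 58.6%, 59.0% and 59.5% of all probes called in either direction. The difference was -3.59 to -3.26 for Egr1, -3.99 to -3.83 for Arc and -2.86 to -2.75 for Homer1. Between genotypes, 1 of 17 was called in Per3 5/5 cortex (Egr3, 0.47 higher) and 3 in Per3 4/4 cortex, Egr3 higher by 0.47, Homer1 lower (-0.24) and Jun lower (-0.53, SE 0.11, adjusted p = 0.00340). Homer1 was read here by its brightest probe only. In the study, probes for the start of its transcripts read higher in the knock-ins than in WT, and probes for the end lower. Jun kept its call with scan day as a block (-0.49, adjusted p = 0.0234). In hypothalamus 2 of 16 were called higher (Npas4 and Fosb) and 2 lower (Fosl2 and Egr2) in Per3 5/5 than in WT, and in Per3 4/4 0 higher and 6 lower, Jun, Fosl2, Egr1, Egr2, Egr4 and Fos, with differences of -0.81 to -0.41. With scan day as a block 1 of them was called, Npas4 in Per3 5/5 hypothalamus (adjusted p = 0.0492). The shares called without it were 25% and 37.5% in Per3 5/5 and Per3 4/4 hypothalamus, beside 18.8% and 15.1% of all probes. For cortex they were 5.88% and 17.6%, beside 12.4% and 22.5%. Between the knock-ins 0 genes of the 4 lists were called in either tissue.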

How the data were processed

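RNA from frontal cortex and hypothalamus of 24 mice was hybridised to 48 1-colour Agilent arrays on 12 slides. The authors deposited Feature Extraction output, in which, per the file headers, a processed signal is a linear intensity with background and spatial trend removed; it is not scaled between arrays and comes with raw medians of spot and local background and with other quality calls (well above background, outlier, saturated; 0 or 1). The authors also deposited a series table of log2 values, shifted to the 75th percentile and centred by probe within each tissue, which served as an alternative.

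Here log2 signals were shifted so that the 75th percentile of an array was 0. Outlier spots (48 to 172 per array) were missing, and replicate spots were averaged. Tests were run on probes that 6 or more of the 8 arrays of any group read well above background (29715 probes in cortex, 30735 in hypothalamus, 31228 together). The files hold no gene names, so 27668 of 41174 probes were named through RefSeq accessions and the RefSeq gene table (GRCm38.p6; the array annotation uses mm9, so no gene coordinates were taken). Array number limits the precision, and no depth applies.

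Genotypes were compared in R 4.3.3 with limma 3.58.1 (two-sided moderated test) on the 24 arrays of a tissue, without replicate blocks. Tissues and interactions were fitted on 48 arrays with mouse as a block, because both tissues came from the same animal (correlations of their deviations 0.11 to 0.69). Benjamini-Hochberg adjustment covered all tested probes, and an adjusted p under 0.05 was called. The fit was tested on simulated data. Correlations used 100000 permutations, two-sided (numpy 2.4.6, with ranks from scipy 1.17.1). The residuals were shuffled over all 24 mice, without regard to genotype or slide. P values measure the spread between these mice.

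Named genes were the 10 members with all probes, the called genes of 4 lists (or the 4 with the smallest adjusted p), and the 2 most similar genes for Crhbp, Nr3c1, Fkbp5 and Sgk1. Members and lists were chosen with earlier results of these data known. Alternatives covered scaling, background correction, filter, outlier spots, scan day, slide, replicate block, samples in the fit, the methods' t-test and arrays left out.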

Additional observations from a re-analysis of the deposited data

Results flagged for a closer look

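In 102 groups of 8 arrays (17 probes in 6 groups), 1 array stood far from the other 7 by Dixon's criterion in 16 cases, spread over 8 of the 9 genes; chance gives about 1 in 20 groups. No cause was tested. In cortex, Crhr1 probe A_51_P229163 was -5.10 in Per3 5/5 replicate 1, far below the next value of 1.52. Crhr1 probe A_52_P4910 was lowest in Per3 5/5 replicate 7 at -3.47 (next -2.56) and highest in WT replicate 5 at -2.40 (next -2.82). Fkbp5 A_52_P481493 was highest in Per3 5/5 replicate 6 at -1.26 (next -1.98), and Hsd11b1 in Per3 5/5 replicate 3 at 1.92 (next 1.56). Both Tsc22d3 probes were highest in WT replicate 4, A_51_P235821 at 2.86 (next 2.51) and A_52_P600518 at 1.55 (next 1.19).

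In hypothalamus, WT replicate 3 stood apart in 3 genes: Tsc22d3 A_51_P235821 was 4.00 (next 3.11), Nr3c2 A_51_P377914 was -6.04 (next -4.83) and Nr3c1 A_52_P254174 was -2.49 (next -1.84). Fkbp5 A_52_P481493 was highest in WT replicate 8 at -1.18 (next -2.03), the array that also held the highest pituitary signals. Crhbp was highest in Per3 4/4 replicate 2 at 0.40 (next 0.09). Crhr1 A_52_P4910 was lowest in Per3 4/4 replicate 6 at -3.97 (next -3.50), and Nr3c1 A_52_P254174 was highest in Per3 4/4 replicate 8 at -1.28 (next -1.82). Crhr2 was lowest in Per3 5/5 replicate 5 at 0.57 (next 0.88), and Hsd11b1 in Per3 5/5 replicate 8 at 0.763 (next 1.1).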

How the results depend on the processing

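By the brightest probe of each gene, 2 genes (Crhbp and Sgk1) were called between Per3 5/5 and WT cortex. That count was 0 with no filter on dim probes, with only these 2 genotypes in the fit, with quantile normalization, on scan day 3 alone, with slide as a fixed or random block, with the methods' t-test and without the dim arrays; it was 1 with scan day as a block (Crhbp) and 1 with the replicate block (Sgk1, adjusted p = 0.0385; Crhbp had 0.0696). Between Per3 4/4 and WT cortex, 2 genes (Nr3c1 and Sgk1) were called, 0 on scan day 2 or 3 alone and with scan day or slide as a fixed block, and 1 (Sgk1) with slide as a random block and without the dim arrays. In Per3 5/5 against WT hypothalamus the count of 0 became 1 (Nr3c1 A_52_P138090) with the array median. Between the tissues the 6 calls of Per3 4/4 became 2 on scan day 3 alone, which held 1 such mouse, assumed to vary like the others. The 2 correlations between tissues became 1 with the array median and 1 with quantile normalization (Crhbp each time), and 0 without the 2 farthest mice. No result changed sign among those called. Under the alternatives, the called genotype differences of single probes stayed past the threshold in 52 cases and missed it in 31, and the tissue differences in 362 and 22. Same-numbered mice of different genotypes deviated with correlations of -0.42 to 0.52, so numbers do not pair them; the replicate block changed no other genotype count, and without the mouse block only Crhbp in Per3 5/5 was lost (adjusted p = 0.0644). The deposited table was not run for tissue differences, since it is centred within each tissue. Signal limited the dimmest Nr3c2 probe.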
